A study of Mus musculus with 8 samples.

Results

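The sperm and spermatid genes described here are 34 of the 14995 genes that could be followed on arrays of 2-cell mouse embryos. They were chosen by name alone, as genes whose symbol marks a protamine (Prm), transition protein (Tnp), outer dense fibre protein (Odf), A-kinase anchor of the tail, Smcp, testis-specific serine kinase (Tssk), Izumo or zona pellucida binding protein (Zpbp), CatSper channel subunit, or a Spata or Spem gene. The rule itself uses no measured value, though it was chosen with earlier results of these data known. Of 72 RefSeq symbols that fit these names, 38 were not among the 34 and were not analysed here, among them Prm1, Odf1, Akap4, Izumo1 and Catsper1. A further 3 probesets carried a fitting symbol together with another gene's and were not used.

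The RNA came from 8 pools of 2-cell embryos, 1 array each, averaging 26 embryos. C57BL/6 females given 5 IU of eCG and hCG were mated with C57BL/6 males (3 pools), with transgenic males labelled KDM1A TG (3 pools), or with nonTG males, the littermates of those males without the transgene (2 pools). All mothers were thus C57BL/6, and embryos were flushed from the oviduct 46 to 48 hours after hCG. KDM1A is a histone demethylase, and the series concerns histone methylation in developing sperm. The labels name neither the promoter of the transgene nor the age of the males, and the genotype they give is taken as that of the sires, since the embryos' own is not stated. Whether the pools of a group had different sires is not stated either. The p-values thus speak of spread among these pools alone, largely shared over genes by the fit, and some of it may be technical. Sample titles write TG3 and nonTG3 without saying what the 3 stands for.

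During spermiogenesis the haploid spermatid replaces its histones with transition proteins and then with protamines, and it builds an acrosome and a tail around a core of microtubules, the axoneme. Much of this is made from mRNAs that are transcribed in round spermatids and stored, since transcription stops as the nucleus condenses. Mature sperm carry remnants of these mRNAs into the egg, which is why the genes are of interest as possible paternal RNA in the early embryo. The axoneme of the sperm tail shares many components with motile cilia, and the oviduct from which these embryos were flushed is lined in part by ciliated cells. Several Spata genes also work outside the testis, and their name records only where they were first found.

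The deposited values are log2 signals per probeset, with array medians from 2.73 to 2.86. Values spread most widely in replicates 1 and 3 of KDM1A TG, where the interquartile range reached 2.38 and 2.604, while the other arrays had 1.87 to 2.09. Maternal oocyte markers (18 genes measured) averaged 3.85 to 4.96 per array and 2-cell activation markers (19 genes) 3.58 to 4.59. Kdm1a itself was not analysed here, and the transgene could therefore not serve as a check of the labels. A gene was tested where its mean over the arrays exceeded the 30th percentile of all probesets, a filter level of 2.07. Of all genes, 76.3% passed it, and of the 34 sperm and spermatid genes 22 did (64.7%). Brightness differs between probesets for technical reasons, so a level is compared between arrays and says little of abundance relative to another gene. In a pool, fewer cells of a type and less RNA per cell cannot be told apart.

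No sperm or spermatid gene passed limma's test in any comparison of sire groups. Over the 8 arrays the 34 genes ranged less than genes in general, by a median of 0.99 against 1.11 on the log2 scale.

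**Figure D1:**
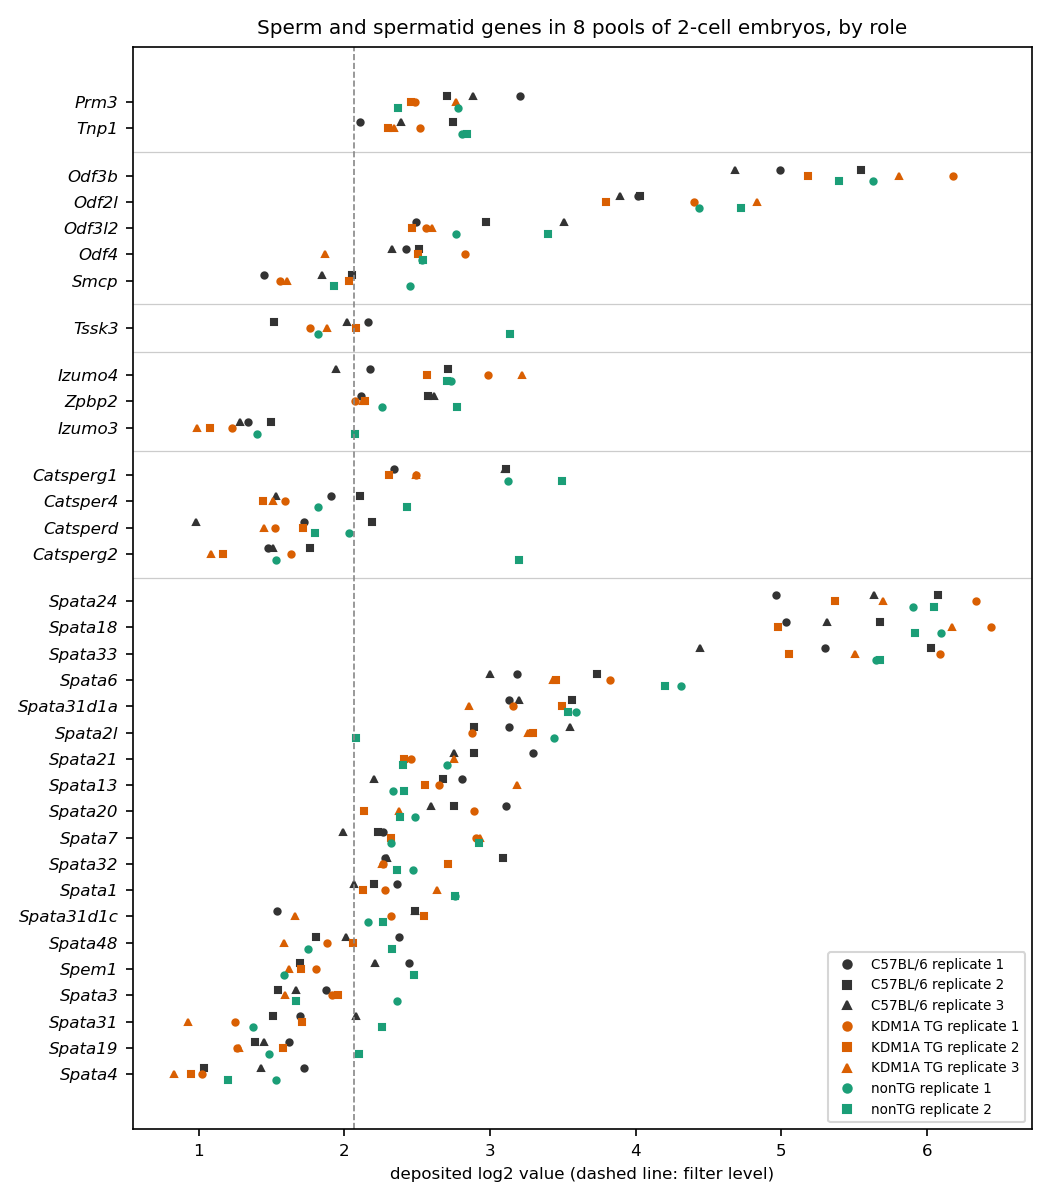
Deposited log2 value of each of the 34 genes (rows, grouped by role) in each of the 8 arrays, coloured by sire group with a symbol per replicate number; the dashed line is the filter level of 2.07. Spata24, Spata18, Spata33 and Odf3b lie far to the right of the line in every array, Prm3 and Tnp1 just to its right, and Smcp, Tssk3, Izumo3 and Spata4 at or to the left of it in most.

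Genes are grouped by name, and the role of a group need not be that of each member. Nuclear packaging was represented by 2 genes. Tnp1, transition protein 1, which takes the place of histones before protamines are laid down, measured 2.11, 2.75 and 2.39 with C57BL/6 sires, 2.52, 2.30 and 2.34 with KDM1A TG sires, and 2.81 and 2.84 with nonTG sires. Both nonTG values lay above all others, and the C57BL/6 and KDM1A TG arrays overlapped. Relative to C57BL/6, Tnp1 had log2 changes of -0.03 in KDM1A TG and 0.41 in nonTG, and KDM1A TG had -0.44 relative to nonTG (adjusted p = 0.968, 0.765 and 0.847 by limma). Prm3, a gene of the protamine cluster that encodes an acidic protein rather than a DNA-packaging one, measured 3.21, 2.71 and 2.88 in C57BL/6, 2.49, 2.46 and 2.77 in KDM1A TG, and 2.78 and 2.37 in nonTG arrays. The groups overlapped, with C57BL/6 replicate 1 the highest array. Its changes from C57BL/6 were -0.36 in KDM1A TG (95% interval -1.003 to 0.28) and -0.36 in nonTG (-1.07 to 0.36).

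Of the 5 tail genes, Odf3b, a relative of the outer dense fibre protein Odf3, measured 4.99, 5.55 and 4.68 in C57BL/6, 6.18, 5.18 and 5.81 in KDM1A TG, and 5.63 and 5.40 in nonTG arrays. KDM1A TG replicate 1 was highest and C57BL/6 replicate 3 lowest, and the groups overlapped. Odf3b had a log2 change of 0.65 for KDM1A TG against C57BL/6 (95% interval -0.01 to 1.31, SE 0.33, adjusted p = 0.357 by limma). Odf2l, a centriole and basal body protein, measured 4.02, 4.03 and 3.89 in C57BL/6, 4.40, 3.80 and 4.83 in KDM1A TG, and 4.43 and 4.73 in nonTG arrays. Both nonTG arrays lay above every C57BL/6 array, while the KDM1A TG arrays included the highest and the lowest value of all. Odf3l2 measured 2.50, 2.97 and 3.51 in C57BL/6, 2.56, 2.47 and 2.60 in KDM1A TG, and 2.77 and 3.40 in nonTG arrays, so that the KDM1A TG arrays lay together at the low end with C57BL/6 replicate 1. Odf4, a protein of the sperm tail, stayed between 1.87 and 2.83 in all arrays. Smcp, the cysteine-rich protein of sperm mitochondria, had values of 1.45 to 2.45 with a mean of 1.87, under the filter level.

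Promoters were searched for 2 motifs that control such genes elsewhere, and stretches are printed for some of the genes that hold a match. The X-box is bound by RFX factors, which switch on genes of cilia, and the CRE by CREM, an activator of spermatid genes. RefSeq windows of GRCm38.p6, 250 bases before to 50 after a start, were held for 29 of the 34 genes; Spata24, Spata2l, Odf3l2, Izumo4 and Catsperg2 had no entry. The X-box was searched as its 2 arms, GTNNCC and GNNAC, exactly 3 free bases apart, and the CRE as TGACGTCA, both on either strand. The CRE's half-site TGACG, which lies within it, was searched too. An X-box match stood in windows of 5 of the 29 genes (Odf3b, Odf2l, Catsperg1, Spata4 and Spata31d1c), in 6 of the 38 windows that the 29 genes have between them, and in 4.62% of all 32851 windows. A CRE stood in 1 of the 38 windows, that of Spata7, and in 1.79% of all windows. The half-site stood in 10 of the 38, in 8 genes, and in 20.8% of all windows. No gene held both an X-box and a CRE. Stretches from 150 bases before to 10 after the start follow 5′ to 3′ on the strand of the gene, with the motif in capitals, for Odf3b (chr15:89379245-89379404, minus strand), Odf2l (chr3:145118450-145118609, plus strand), Catsperg1 (chr7:29214024-29214183, minus strand) and Spata7 (chr12:98627992-98628151, plus strand). Odf3b and Odf2l are tail genes described above. Catsperg1 had the smallest limma p of the 22 genes tested for KDM1A TG against nonTG, and Spata7 holds the only full CRE.
Odf3b: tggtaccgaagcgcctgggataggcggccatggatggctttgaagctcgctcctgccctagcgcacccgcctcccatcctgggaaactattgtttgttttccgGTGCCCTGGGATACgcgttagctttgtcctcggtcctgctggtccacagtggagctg
Odf2l: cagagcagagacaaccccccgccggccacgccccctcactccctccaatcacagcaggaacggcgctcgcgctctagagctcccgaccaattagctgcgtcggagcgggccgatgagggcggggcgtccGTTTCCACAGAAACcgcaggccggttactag
Catsperg1: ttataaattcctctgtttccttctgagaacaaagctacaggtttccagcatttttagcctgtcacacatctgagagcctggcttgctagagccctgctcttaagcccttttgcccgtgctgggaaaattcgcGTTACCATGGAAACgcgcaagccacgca
Spata7: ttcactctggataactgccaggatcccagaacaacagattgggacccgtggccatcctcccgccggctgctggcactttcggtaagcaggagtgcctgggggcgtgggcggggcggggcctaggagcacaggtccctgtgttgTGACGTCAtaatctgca

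The X-box match lay 47 to 34 bases before the start in Odf3b, 21 to 8 before it in Odf2l and 18 to 5 before it in Catsperg1. Odf2l has another RefSeq start, and relative to that one the match ran from 10 bases before it through base 4. The CRE of Spata7 ran from 7 bases before the start through its first base. A match is a description of the sequence, and no binding was measured.

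The egg binding and fusion genes were Izumo4, Zpbp2 and Izumo3. Izumo4 belongs to the family of Izumo1, the sperm protein that binds the egg receptor Juno, and measured 2.18, 2.71 and 1.94 in C57BL/6, 2.99, 2.57 and 3.22 in KDM1A TG, and 2.74 and 2.71 in nonTG arrays. Its KDM1A TG and C57BL/6 values overlapped in 1 pair of arrays, KDM1A TG replicate 2 and C57BL/6 replicate 2. The mean difference was 1.57-fold (95% interval 1.0002 to 2.45, log2 change 0.65, SE 0.33, unadjusted p = 0.0499, adjusted p = 0.352 by limma), which did not pass. Zpbp2, a protein of the acrosomal matrix, measured 2.11, 2.58 and 2.62 in C57BL/6, 2.07, 2.15 and 2.13 in KDM1A TG, and 2.26 and 2.78 in nonTG arrays, and both nonTG arrays lay above all KDM1A TG arrays. Izumo3, which acts in acrosome formation, had values of 0.99 to 2.08 and was not tested.

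CatSper, the calcium channel that drives hyperactivated swimming, was represented by Catsperg1 and, under the filter level, Catsper4, Catsperd and Catsperg2. Catsperg1 and Catsperg2 are paralogs, and a probeset of either may bind RNA of the other. Catsperg1 measured 2.34, 3.11 and 3.101 in C57BL/6, 2.49, 2.31 and 2.49 in KDM1A TG, and 3.13 and 3.50 in nonTG arrays. The nonTG arrays lay above all others and the KDM1A TG arrays at the low end, joined there by C57BL/6 replicate 1. For KDM1A TG against nonTG the log2 change was -0.88 (95% interval -1.60 to -0.16, SE 0.36, unadjusted p = 0.0175, adjusted p = 0.75 by limma), which did not pass. Catsperg2 measured 1.48, 1.77 and 1.51 in C57BL/6, 1.63, 1.17 and 1.09 in KDM1A TG, and 1.53 and 3.20 in nonTG arrays, the widest range of the 34 genes. Its single high value came from nonTG replicate 2. The only spermatid kinase, Tssk3, measured 2.16, 1.51 and 2.02 in C57BL/6, 1.76, 2.08 and 1.88 in KDM1A TG, and 1.82 and 3.14 in nonTG arrays, again with nonTG replicate 2 far above the rest and a mean of 2.05 just under the filter level.

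The largest group, 18 Spata genes and Spem1, held 13 genes above the filter level. Spata18, a mitochondrial quality control protein that p53 induces, measured 5.03, 5.68 and 5.31 in C57BL/6, 6.44, 4.98 and 6.17 in KDM1A TG, and 6.10 and 5.92 in nonTG arrays. Both nonTG arrays exceeded every C57BL/6 array, and KDM1A TG replicate 2 was the lowest of all. Spata24 measured 4.97, 6.08 and 5.64 in C57BL/6, 6.34, 5.37 and 5.70 in KDM1A TG, and 5.91 and 6.05 in nonTG arrays. Spata33, which ties the phosphatase calcineurin to sperm mitochondria, measured 5.30, 6.03 and 4.44, then 6.09, 5.05 and 5.50, then 5.65 and 5.68 in the same order. For Spata24 and Spata33 alike, the lowest array and the next to highest were both C57BL/6 arrays.

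Spata6, needed for the piece that joins sperm head and tail, measured 3.19, 3.73 and 3.004 in C57BL/6, 3.83, 3.46 and 3.44 in KDM1A TG, and 4.31 and 4.20 in nonTG arrays. The nonTG arrays lay above the other 6, which overlapped among themselves. It had the smallest p of the 22 genes tested for nonTG against C57BL/6, a difference of 1.93-fold (95% interval 1.17 to 3.18, log2 change 0.95, SE 0.36, unadjusted p = 0.0104, adjusted p = 0.392 by limma), which did not pass. Spata7, a protein of the photoreceptor's connecting cilium, measured 2.26, 2.23 and 1.99 in C57BL/6, 2.90, 2.32 and 2.93 in KDM1A TG, and 2.32 and 2.93 in nonTG arrays. It lay higher than every C57BL/6 array in all 5 arrays of the other groups (log2 changes 0.56 and 0.46, adjusted p = 0.423 and 0.732 by limma).

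Spata21 ran the other way, at 3.30, 2.89 and 2.76 in C57BL/6, 2.46, 2.41 and 2.75 in KDM1A TG, and 2.71 and 2.405 in nonTG arrays, all 5 of the latter below the C57BL/6 arrays (log2 changes -0.44 and -0.43, adjusted p = 0.508 and 0.757 by limma). Spata2l, a relative of the signalling adaptor Spata2, measured 3.13, 2.89 and 3.55 in C57BL/6, 2.88, 3.30 and 3.26 in KDM1A TG, and 3.44 and 2.08 in nonTG arrays, with nonTG replicate 2 lowest by far. Spata31d1a measured 3.13, 3.56 and 3.20 in C57BL/6, 3.16, 3.50 and 2.86 in KDM1A TG, and 3.59 and 3.54 in nonTG arrays. Its groups overlapped except KDM1A TG and nonTG. Spata31d1c, a close relative whose RNA the probes may not separate from it, ranged from 1.54 to 2.55. Spata13, a guanine nucleotide exchange factor of the cytoskeleton, Spata20, Spata32 and Spata1 had values between 2.07 and 3.19 in all arrays.

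The first contrast asks whether these genes differ between the early offspring of KDM1A TG and C57BL/6 males (n = 3 and 3). None of the 22 tested genes passed limma's test after Benjamini-Hochberg adjustment over 11444 genes, against 0.725% of all genes. At an unadjusted p under 0.05 there was 1, Izumo4, where 14.2% of all genes passed. The arrays did not overlap for 2 of the 22, Spata7 (higher) and Spata21 (lower), against 19.8% of all genes. The log2 changes ran from -0.45 to 0.65 with standard errors of 0.32 to 0.34. Over all 34 genes 13 means were higher and 21 lower in KDM1A TG, with a median of -0.06 where all genes had 0.06. After quantile normalization 18 were higher and 16 lower, and after median centring likewise, so no direction of the group as a whole is given. Weighting the arrays by their estimated quality put Spata18 and Odf3b past the threshold (log2 changes 0.96 and 0.91, adjusted p = 0.0172 and 0.0204 by limma). Under these weights, which counted KDM1A TG replicate 1 and C57BL/6 replicate 1 most, 1694 of all genes passed, against 83 without them.

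The nonTG males carry no transgene, and their offspring were set against the C57BL/6 group in the same way (n = 2 and 3). None of the 22 genes passed, against 0.131% of all genes, and 1 of them, Spata6, did so at an unadjusted p under 0.05, against 8.22%. In 10 of the 22 genes all nonTG values lay to one side of all C57BL/6 values, against 24.8% of all genes. Of these 10, Spata6, Spata18, Odf2l, Spata1, Spata7, Catsperg1, Tnp1 and Odf4 were higher in nonTG, by 0.12 to 0.95 on the log2 scale, and Spata21 and Spata20 had changes of -0.43 and -0.39. Over all 34 genes the median change was 0.29, which is 0.26 above that of all genes, with 25 higher and 9 lower. It was 0.10 above all genes without nonTG replicate 2. Roles were assigned from gene names. By role, the nonTG mean was higher for 4 of 4 CatSper, 5 of 5 tail and 3 of 3 egg binding and fusion genes. It was also higher for 1 of 2 packaging genes, the 1 kinase and 11 of 19 Spata and Spem genes. Of all genes, 52.9% had a higher mean. Without nonTG replicate 2 the counts by role were 2, 4, 2, 1, 0 and 10. In the same contrast 16 of 18 maternal oocyte markers had a lower mean in nonTG (median -0.62) and 15 of 19 markers of 2-cell activation did (median -0.50), while 15 of 17 oviduct secretory markers had a higher one (median 0.60). Their part in the values of the sperm and spermatid genes was not tested.

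The third contrast, KDM1A TG with nonTG, compares the offspring of littermate males with and without the transgene (n = 3 and 2). The 3 comparisons share arrays, so their values are not independent of each other. None of the 22 genes passed, against 0.0437% of all genes, and Catsperg1 alone did so at an unadjusted p under 0.05, against 6.41%. For 8 of the 22 genes the arrays did not overlap, against 22.4% of all genes. Catsperg1, Spata6, Odf3l2, Tnp1, Spata1, Zpbp2 and Spata31d1a were the 7 of these that were lower in KDM1A TG, with changes of -0.40 to -0.88, and Spata13 was higher by 0.43. The median change over all 34 genes was -0.28, where all genes had 0.06 (relative median -0.34), with 28 of the 34 means lower in KDM1A TG, against 44.0% of all genes. Without nonTG replicate 2 the relative median was -0.21, with 26 lower. In this contrast 14 of 18 maternal oocyte markers (median 0.55) and 17 of 19 markers of 2-cell activation (median 0.42) had a higher mean in KDM1A TG, and their part in these values was not tested.

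**Figure D2:**
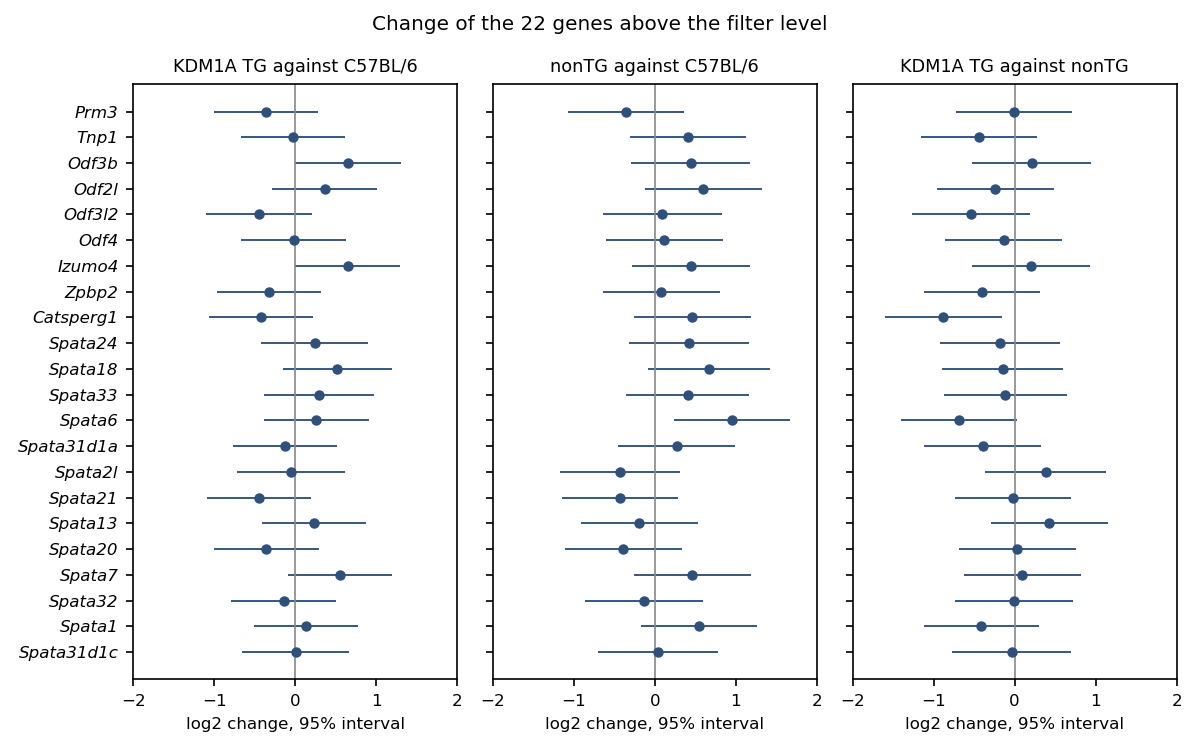
Log2 change (points) with its 95% interval (lines) from the limma fit for the 22 genes above the filter level in the 3 comparisons. Intervals reach 0 or cross it for all genes but Izumo4 in the left panel, Spata6 in the middle panel and Catsperg1 in the right panel, and none of these passed after adjustment.

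The 12 genes under the filter level were Catsper4, Catsperd, Catsperg2, Izumo3, Smcp, Tssk3, Spata3, Spata4, Spata19, Spata31, Spata48 and Spem1. Their median was 2.18 in nonTG replicate 2 and 1.48 to 1.72 in the other 7 arrays. The median of all 3551 genes under the filter level was 1.75 in nonTG replicate 2 and 1.36 to 1.71 elsewhere. For 7 of the 12 genes nonTG replicate 2 was the highest array, as it was for 26.8% of all genes under the filter level. Catsperg2 and Tssk3 were among these 7. Spata19, a protein of sperm mitochondria, measured 2.10 there and 1.26 to 1.62 elsewhere, and Izumo3 2.08 against 0.99 to 1.5003. Catsper4, a pore subunit of the channel, reached 2.43 there, in a range from 1.45, while Catsperd, an auxiliary subunit, ranged from 0.98 to 2.19. Spem1, which spermatids need to shed their cytoplasm, ranged from 1.58 to 2.48 and was highest there. The other Spata genes under the filter level ranged from 0.83 to 2.38, with Spata4 lowest at 0.83 to 1.73.

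All 12 had a lower mean in KDM1A TG than in nonTG, with differences from -0.19 for Spata3 to -1.07 for Catsperg2. Of all genes under the filter level 25.5% had a higher mean in KDM1A TG. Against nonTG replicate 1 alone 9 of the 12 were lower, and 64.0% of all genes under the filter level were. Against nonTG replicate 2 alone 11 were, and 70.3% of those genes. Of the 12, 10 also had a lower mean in KDM1A TG than in C57BL/6, where 22.9% of all genes under the filter level were higher in KDM1A TG. In the 2 widest arrays, KDM1A TG replicates 1 and 3, the median of all genes under the filter level was lowest (1.47 and 1.36), and the part of that width in these differences was not tested.

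**Figure D3:**
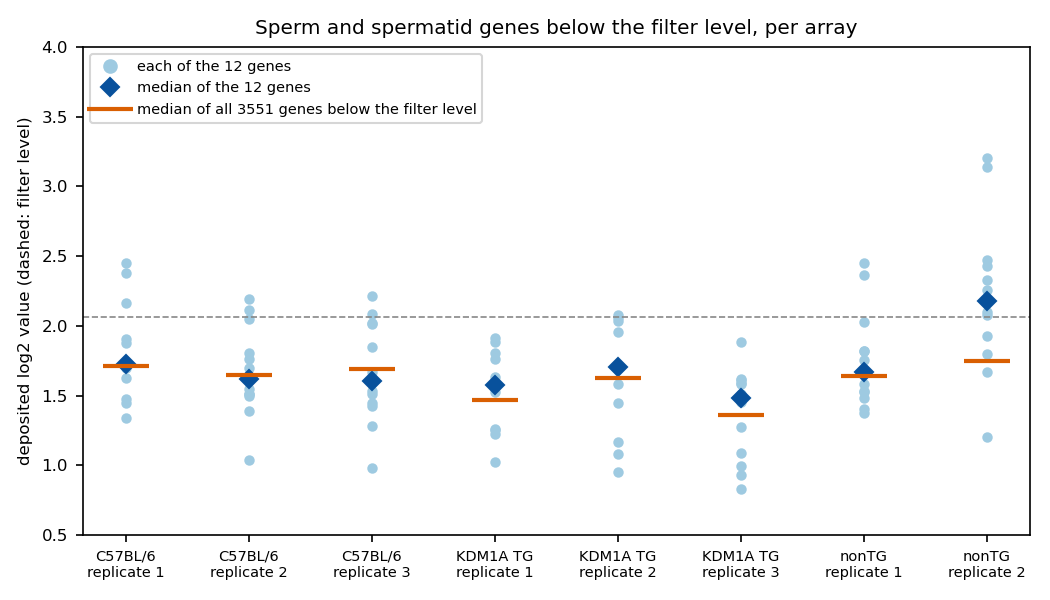
Deposited log2 values of the 12 genes under the filter level in each array (light points), their median (diamonds) and the median of all 3551 genes under that level (bars); the dashed line is the filter level of 2.07. The median of the 12 lies above the line only in nonTG replicate 2, at 2.18, while Catsperg2 and Tssk3 reach 3.20 and 3.14 there.

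Because tail and cilium share parts, the genes were set beside 33 measured markers of motile cilia, none of which is among the 34. Their mean was 4.20, 4.58 and 4.24 in C57BL/6, 5.12, 4.31 and 4.98 in KDM1A TG, and 4.85 and 4.58 in nonTG arrays. Dynlrb2, a dynein light chain, Fam183b and Dnali1, an axonemal dynein chain, were the markers of highest mean signal, and Dynlrb2 measured 9.12 to 10.36. Foxj1, the regulator of motile ciliogenesis, measured 4.62, 5.45 and 4.82 in C57BL/6, 6.29, 5.40 and 5.82 in KDM1A TG, and 5.88 and 5.55 in nonTG arrays. Markers of oviduct secretory epithelium (17 measured) averaged 4.65 to 5.35 in C57BL/6, 5.12 to 5.92 in KDM1A TG and 5.44 to 5.71 in nonTG arrays. Stroma and muscle markers (18 measured) averaged 3.55 to 4.37, 4.40 to 5.93 and 3.86 to 5.33. No cilia or oviduct secretory marker passed limma's test. A mean higher than in C57BL/6 was found for 31 of 33 cilia markers in KDM1A TG and for 30 of 33 in nonTG. Among all genes above the filter level the shares were 64.9% and 53.2%. Of the stroma and muscle markers 2 passed as higher in KDM1A TG than in C57BL/6, the smooth muscle genes Acta2 and Myl9 (log2 changes 1.75 and 1.54, adjusted p = 0.0155 and 0.0338 by limma). Of 8 blood and immune markers 1 passed as lower in that contrast, the neutrophil gene S100a9 (log2 change -1.92, adjusted p = 0.0111 by limma), which stood at 6.41 in C57BL/6 replicate 1 and at 1.80 to 3.70 in the other arrays. As a list the blood and immune markers did not share that direction. Their means were higher in KDM1A TG than in C57BL/6 for 5 and lower for 3, with a median change of 0.17. The part of these cell types in the values of the sperm and spermatid genes was not tested.

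Spata18, Odf3b and Izumo4 followed the cilia marker mean most closely over the 8 arrays. This relation was examined after the values had been seen. For Spata18 Pearson's r was 0.96 and Spearman's rho 0.90 (exact two-sided permutation p = 0.000719 and 0.00456, adjusted p = 0.071 and 0.0989 over 11444 genes). For Odf3b r was 0.95 and rho 0.98 (exact permutation p = 0.000124 and 0.000397, adjusted p = 0.0526 and 0.068). For Izumo4 r was 0.88 and rho 0.95 (exact permutation p = 0.00305 and 0.00114, adjusted p = 0.084 and 0.068). Without the 2 arrays farthest from the median, KDM1A TG replicates 1 and 3, r was 0.93, 0.89 and 0.80 for Spata18, Odf3b and Izumo4. After quantile normalization it was 0.95, 0.90 and 0.80. None passed after adjustment, where 0.0612% of all genes did. With the oviduct secretory markers, whose mean followed the cilia mean with r of 0.90, the same genes had r of 0.82, 0.91 and 0.94, and with the maternal oocyte markers -0.80, -0.72 and -0.65.

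Odf2l, Spata24, Spata7 and Spata33 had r of 0.73, 0.73, 0.72 and 0.71, and with the 3 genes above they made 7 of 22 at an unadjusted p under 0.05 by the exact permutation test. Among all genes 22.3% did so, and 11.0% had r of at least 0.80, against 3 of the 22, so the share among the tested genes was not far from that of all genes. Of the 5 genes with an X-box match, Odf3b and Odf2l had r of 0.95 and 0.73, and Catsperg1 had 0.01. Spata31d1c had -0.10 and Spata4, under the filter level, had -0.48. Without KDM1A TG replicates 1 and 3, r was 0.89, 0.69, 0.62, 0.18 and -0.10 in the same order. The distance of Catsperg1 from Odf3b and Odf2l thus rests on those arrays. Tnp1 and Prm3 had r of 0.41 and -0.39. The CatSper genes lay between -0.08 and 0.15 over all arrays, and between 0.33 and 0.67 without KDM1A TG replicates 1 and 3, and Spata31 and Spata48, both under the filter level, were lowest at -0.70 and -0.67. Leaving out KDM1A TG replicates 1 and 3 lowered r for Spata7 to 0.38 and raised it for Spata6 from 0.57 to 0.93 and for Tnp1 to 0.89, so these relations rest on which arrays are counted. After quantile normalization r was 0.74 for Tnp1 and -0.44 for Prm3. The width of the arrays enters all these correlations.

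**Figure D4:**
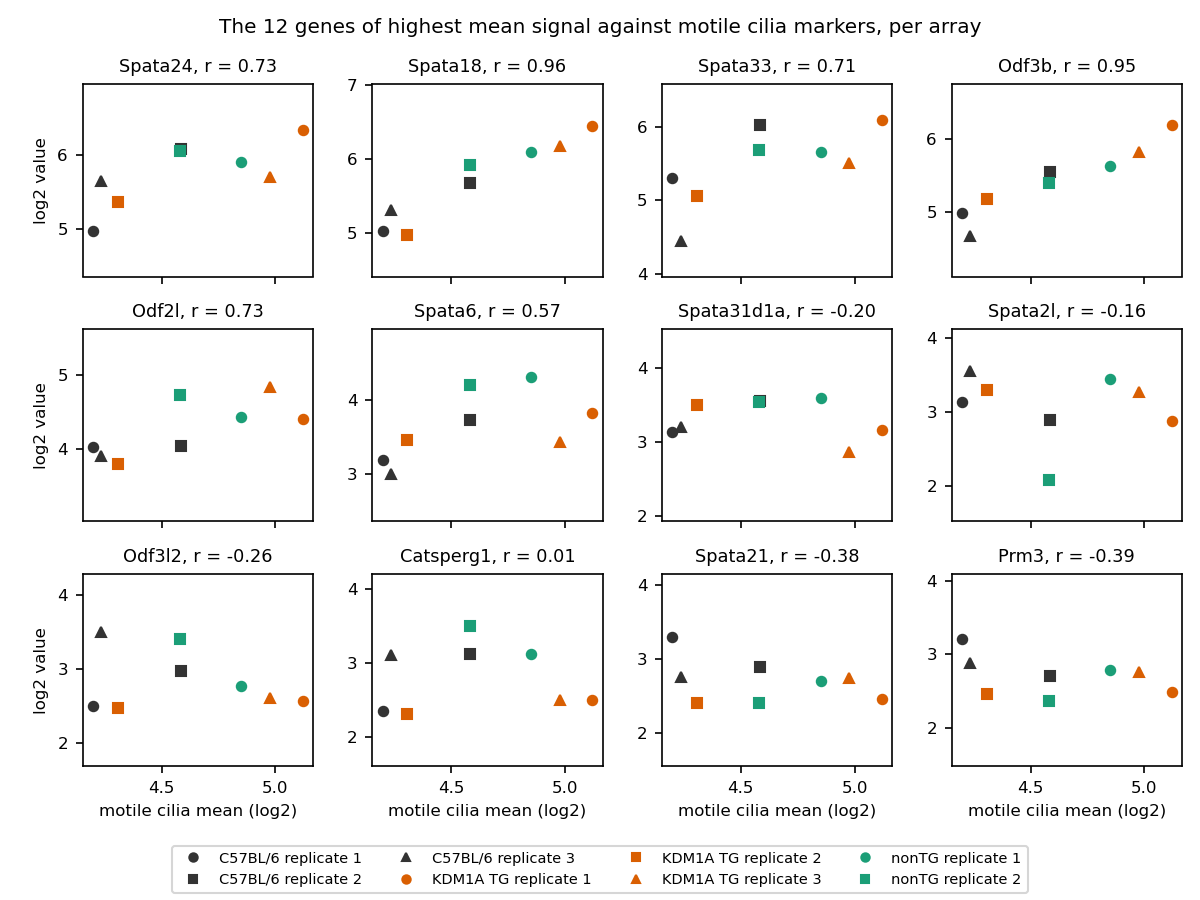
Log2 value of the 12 genes of highest mean (vertical axis, the same span of 2.6 in each panel) against the mean log2 value of 33 motile cilia markers (horizontal axis), 1 point per array. Spata18 and Odf3b rise along the diagonal with r of 0.96 and 0.95, while Catsperg1 and Prm3 show no such order (r of 0.01 and -0.39).

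**Figure D5:**
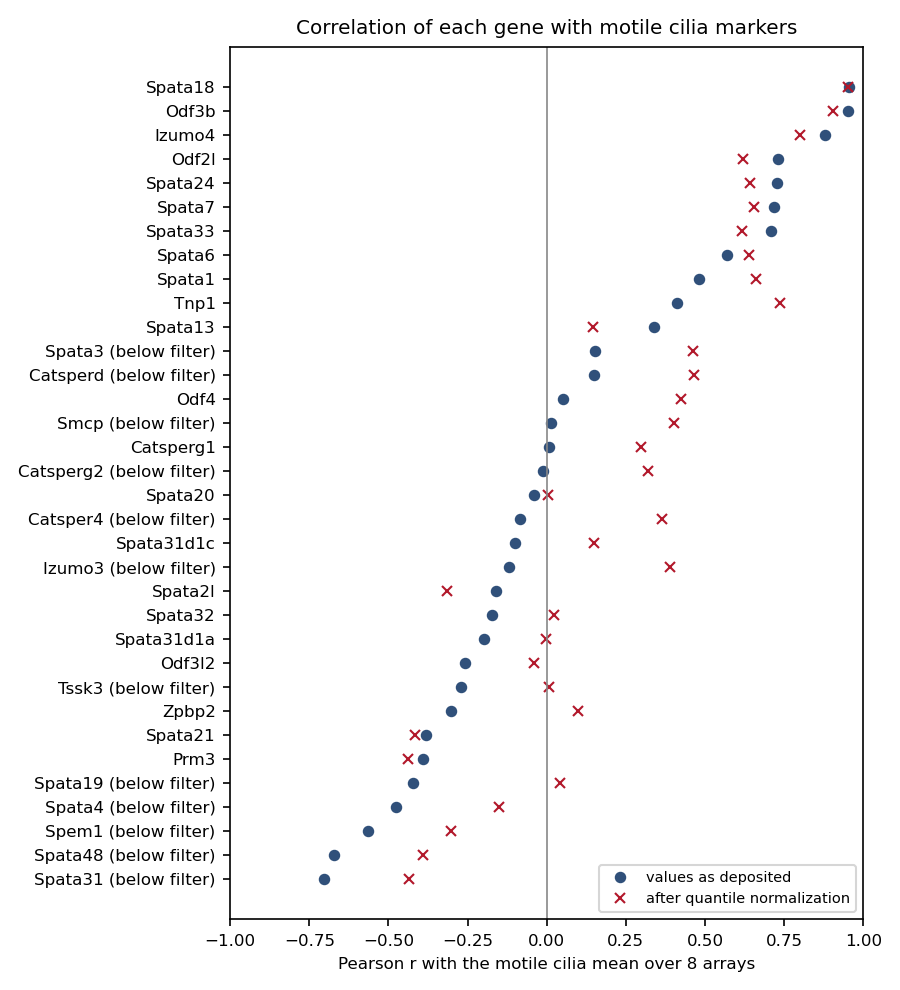
Pearson's r of each of the 34 genes with the motile cilia mean over the 8 arrays, from the deposited values (circles) and after quantile normalization (crosses). Spata18, Odf3b and Izumo4 are at the top under both, and all 12 genes under the filter level move to the right after normalization.

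Other genes of sperm and spermatids, from a list of 64 that the names above do not cover, were followed in the same way. Of these, 34 were measured and 21 lay above the filter level, and none passed limma's test in any comparison. At an unadjusted p under 0.05, 2 of the 21 were higher in KDM1A TG than in C57BL/6 (Dkkl1 and Ropn1l). In nonTG against C57BL/6 1 was higher (Meig1), and 0 differed between KDM1A TG and nonTG. Of all genes, 14.2%, 8.22% and 6.41% passed at that p in these comparisons. Dkkl1, a secreted protein of the acrosome, measured 2.02, 2.35 and 2.11 in C57BL/6, 2.87, 3.23 and 2.74 in KDM1A TG, and 2.62 and 2.90 in nonTG arrays, with the C57BL/6 arrays below all others (log2 change 0.79 for KDM1A TG, SE 0.32, adjusted p = 0.253 by limma). Meig1, which spermatids need to build the tail, measured 3.80, 4.86 and 3.61 in C57BL/6, 5.22, 4.02 and 4.55 in KDM1A TG, and 4.73 and 4.96 in nonTG arrays. Tekt4, a filament protein of tails and cilia, ranged from 3.94 to 5.31, and Ropn1l, a protein of the tail's fibrous sheath, from 2.68 to 4.06. Gapdhs, the glycolytic enzyme of the sperm tail, ranged from 2.21 to 3.38.

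The mean of these 34 other sperm genes was 2.42 to 2.49 in C57BL/6, 2.28 to 2.34 in KDM1A TG and 2.38 to 2.46 in nonTG arrays. Of the 34 means, 24 were lower in KDM1A TG than in C57BL/6 (median -0.23), against 45.1% of all genes. In nonTG 20 were lower than in C57BL/6 (median -0.08), against 47.1% of all genes, and 20 were lower in KDM1A TG than in nonTG (median -0.06), against 44.0%. These counts were not repeated under other scalings, and 13 of the 34 lay under the filter level, so no direction of the list is given. Meiotic germ cell genes, partly shared with oocytes, averaged 2.95 to 3.45, 2.86 to 3.73 and 2.84 to 3.43 over 9 measured genes, with overlapping groups.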

How the data were processed

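RNA of 8 pools of 2-cell embryos was measured on 1 array each. Its deposited file holds a log2 value for each probeset. Tools named in the submitters' processing notes are R 3.1.0 with oligo and limma, and RMA, with no role stated, and the scaling is not given in the sources used here. Of 22961 probesets, 15745 carried 1 gene symbol in the platform annotation, 1320 several and 5896 none. Each gene was taken by its brightest probeset of 1 symbol. All 34 genes had a single such probeset and were found by gene identifier in RefSeq genes of GRCm38.p6.

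A mean per sire group was fitted on all 8 arrays in R 4.3.3 by limma 3.58.1 (lmFit, eBayes). This fit draws the spread of each gene toward that of all genes tested. Standard errors of the 22 genes thus differed little (0.32 to 0.34 for KDM1A TG against C57BL/6), whatever a gene's own spread between arrays. Contrasts were two-sided, with Benjamini-Hochberg adjustment over the 11444 genes above the filter level (mean above the 30th percentile of probesets) and a threshold of 0.05. Intervals are 95%. Correlations over the arrays were tested by all 40320 orders of the arrays (NumPy 2.4.6), where the smallest p possible is 4.96e-05. The fit and the permutation test were tried on simulated data with independent noise of equal spread in every array. The arrays here differ in spread, which those trials do not cover.

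The genes, lists and tests were chosen with earlier results of these data known. Every array's value was to be given for the packaging genes, the 12 genes of highest mean, the 5 of widest range and those with printed tests, and others of the 34 could be named with theirs. Tests of single genes were to be printed for those past the threshold or, up to 8 per comparison, at an unadjusted p under 0.05, and further ones printed here were chosen after their values were seen. Other lists give up to 2 genes per comparison by smallest p and up to 3 by mean. Alternatives changed the filter, the scaling, the robustness and weights of the fit, the arrays or probesets entering it, or added a block for the replicate number. Symbols of several genes and scanner files were not used here. The number of arrays limits the precision of every value.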

Additional observations from a re-analysis of the deposited data

How the results depend on the processing

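No sperm or spermatid gene passed in any of the 3 comparisons under the 20 alternatives to each, apart from 2 (Spata18 and Odf3b) with array weights in KDM1A TG against C57BL/6. Spata6, Catsperg1 and Izumo4 kept their direction and stayed short of the threshold under each alternative that tested them (20, 20 and 19). The log2 changes were 0.80 to 1.16, -1.07 to -0.70 and 0.29 to 0.87, with adjusted p of 0.145 to 0.819, 0.482 to 0.999 and 0.0511 to 0.998. The lowest change of Izumo4, 0.29, comes from the fit without KDM1A TG replicates 1 and 3, which leaves 1 KDM1A TG array and assumes that it varies like the other groups. Izumo4 was not tested with the filter at the 50th percentile. The cause of the changes below was not tested. The relative median of the 34 genes moved beyond the spread between replicates (SD 0.11) only without nonTG replicate 2. Leaving out each array gave -0.23 to -0.02 for KDM1A TG against C57BL/6, 0.10 to 0.36 for nonTG against C57BL/6 and -0.42 to -0.21 for KDM1A TG against nonTG.

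The count of all genes called, 83, 15 and 5 in these 3 comparisons, moved by over 1.5 times in many fits. In KDM1A TG against C57BL/6 it was 138 with no filter, 53 with the filter at the 50th percentile, 5 after quantile normalization, 5 after cyclic loess, 151 after median centring, 154 with robust eBayes, 1694 with array weights and 1 without KDM1A TG replicates 1 and 3 together (1 array left in that group). In nonTG against C57BL/6 it was 44, 9, 1 and 1 in the first 4 of these, 42 with robust eBayes, 47 with array weights, 6 with only the arrays of the 2 groups and 6 without KDM1A TG replicates 1 and 3. In KDM1A TG against nonTG it was 2 with the stricter filter and after either normalization, 8 with robust eBayes, 3 with array weights, 3 with the mean of all probesets and 3 without those replicates. Leaving out single arrays gave 9 to 254, 3 to 80 and 2 to 17. With the replicate number as a block, 23 genes passed in nonTG against C57BL/6, and no sperm or spermatid gene did. Same-numbered arrays had deviations from their group means that correlated at -0.38 to 0.18, and differently numbered ones at -0.26 to 0.26. Deviations within so small a group cancel out, so these correlations cannot decide whether the numbers pair the arrays. The main fit used no pairing. After median centring Odf3b's correlation with the cilia markers passed (r = 0.95, adjusted p = 0.0437 by the exact permutation test), while Spata18 and Izumo4 did not. By the same test none passed after the other scalings. For Spata18, Odf3b and Izumo4 the adjusted p was 0.187, 0.209 and 0.220 after quantile normalization. After cyclic loess it was 0.182, 0.207 and 0.244, with r of 0.95, 0.90 and 0.77. Signals over background come with scanner files, which were not used here, so the depth of a weak signal is unknown.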
